A study of Mus musculus with 9 samples.

Results

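The CpG-rich megabase blocks of the mouse autosomes hold long stretches that lie away from CpG-dense windows such as islands, and these background stretches are described here in primordial germ cells with and without the gene Tet1. Full 1 Mb blocks with 1000 or more reads in each of the 2 pools were ranked by the number of CpG positions that either pool listed, and the highest 10% were taken, which gave 239 of 2392 blocks. Members were their 1 kb windows of 1 to 19 listed positions that had no window of 40 or more positions within 2 windows. There were 196511 such windows, of 2307220 autosomal windows with a listed position in ranked blocks. The same kind of window in the other 2153 blocks, 1987145 in number, served for comparison. The rule itself uses no methylation value, but members and comparisons were chosen with earlier results of these data known.

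Methylation was measured by whole-genome bisulfite sequencing in Tet1-null (Tet1 -/-) and wild-type (WT) primordial germ cells of female C57BL/6 embryos at embryonic day 13.5. There were 5 Tet1-null libraries from 1400 to 4700 cells and 4 WT libraries from 1575 to 5251 cells. The deposited values were 1 pooled table per genotype, so a difference between genotypes is a difference between 2 pools and has no replicate check. Bisulfite kit and sequencing run differed among the libraries, and in pooled values their part and that of genotype cannot be told apart. The Tet1-null pool listed 16372728 CpG sites with 46716079 reads, and the WT pool listed 13730600 sites with 30386353 reads. On the mitochondrial chromosome, where a methylated read is taken to be an unconverted cytosine, 1.29% of reads were methylated in the Tet1-null pool and 1.66% in the WT pool, and the levels below include any such reads. Intervals are 95% intervals for counting error (Wilson for a level, Newcombe for a difference), and several PCR reads can stem from the same molecule, since no molecular identifiers are described. A read counts once at each CpG it covers, and the intervals take all these counts as independent.

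Primordial germ cells give rise to the gametes, and they lose nearly all of their CpG methylation during their development in the embryo. In most somatic cells the sequence between CpG islands is highly methylated, while islands, the dense CpG clusters at many gene starts, are unmethylated. CpG-rich megabases are on the whole the gene-rich, GC-rich part of a mammalian chromosome, in which islands lie close together. Tet1 is a dioxygenase that oxidises 5-methylcytosine, a step towards its removal, and its protein binds CpG-dense DNA through a CXXC domain. Bisulfite sequencing reads 5-methylcytosine and 5-hydroxymethylcytosine alike.

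Members made up 82.9% of the windows and 67.1% of the CpG positions of their blocks, the rest being windows of 20 or more positions and sparse windows next to dense ones, and both pools covered them as well as other blocks. The CpG-rich blocks held 11262 to 18479 listed positions each, with a median of 12449, against a median of 6720 in the other blocks. A member window had a median of 10 positions, against 6 in background windows elsewhere, and 56.3% of members had 10 to 19 positions, against 20.8% elsewhere. Members held 5283390 reads in the Tet1-null pool and 3415385 in the WT pool. Mean depth per listed site was 2.92 reads in members and 2.89 in other blocks in the Tet1-null pool, and 2.23 and 2.25 in the WT pool. No read covered 406 of the member windows in the Tet1-null pool and 1451 in the WT pool.

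Of 239 CpG-rich blocks, 28 lay on chromosome 4 and 28 on chromosome 5, 23 on chromosome 8 and 22 on chromosome 11, while chromosome 6 had 2. By share of an autosome's ranked blocks, chromosome 19 (20.7%) and chromosome 17 (20.65%) stood highest and chromosome 6 (1.37%) lowest. The X chromosome is outside the ranking, and none of its 162 full blocks reached the 11262 positions of the cut.

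Background windows of CpG-rich blocks were almost fully unmethylated in both pools. The level, methylated reads over all reads, was 3.41% in the Tet1-null pool (3.39 to 3.42%) and 2.67% in the WT pool (2.65 to 2.69%). The difference of 0.738 percentage points (0.715 to 0.761) was 1.28-fold. With the mitochondrial level subtracted from each pool, members were at 2.12% in the Tet1-null pool and 1.014% in the WT pool, a difference of 1.11 points and 2.09-fold, against 1.63-fold in other blocks. Background windows of other blocks were more methylated, at 3.90% in the Tet1-null pool and 3.26% in the WT pool, so that members minus other blocks was -0.494 and -0.591 points. The gap was wider at the same number of CpGs per window. With their CpG numbers weighted to those of members, members were at 3.41% and other blocks at 4.51% in the Tet1-null pool, a difference of -1.10 points (-1.12 to -1.09). In the WT pool members were at 2.67% and other blocks at 3.68%, a difference of -1.005 points (-1.02 to -0.985). These intervals hold the counting error alone, since windows and blocks are not replicates of a condition.

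Within the CpG-rich blocks of the WT pool, the level hardly changed with the number of CpGs in the window. Windows with 1 to 4 positions were at 2.76% (2.65 to 2.86%), those with 5 to 9 at 2.63%, those with 10 to 14 at 2.65%, and those with 15 to 19 at 2.72% (2.69 to 2.75%). The last class minus the first was -0.0381 points (-0.148 to 0.0684), an interval that included 0. In the Tet1-null pool the same classes were at 3.13%, 3.20%, 3.37% and 3.645%, so the last class minus the first was 0.515 points (0.420 to 0.607). Other blocks had a far steeper increase, by 2.58 points in the Tet1-null pool (2.56 to 2.61) and by 1.77 points in the WT pool (1.74 to 1.80). There, 1 to 4 positions went with 3.13% in the Tet1-null pool and 2.80% in the WT pool, close to members, and 15 to 19 positions with 5.71% and 4.57%. These values depended on where the blocks were divided. With the highest 20% of blocks taken as CpG-rich, the last class minus the first was 0.704 points in the Tet1-null pool and 0.107 points (0.0390 to 0.174) in the WT pool. With the highest 5% it was 0.233 points (0.0749 to 0.384) in the Tet1-null pool and -0.134 points (-0.314 to 0.0363) in the WT pool.

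**Figure D1:**
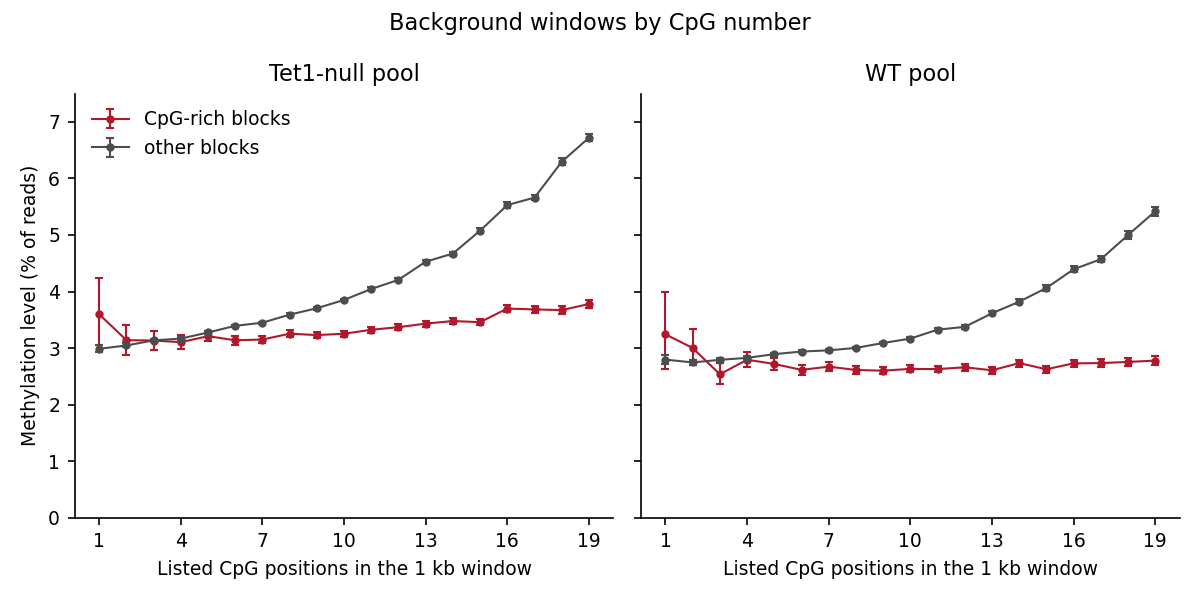
Methylation level (% of reads) against the number of listed CpG positions in a 1 kb background window, in CpG-rich blocks (red) and other blocks (grey), for the Tet1-null pool (left) and the WT pool (right); bars are Wilson 95% intervals for counting error. In windows of 19 positions, CpG-rich blocks were at 3.78% and other blocks at 6.72% in the Tet1-null pool; the WT values were 2.78% and 5.42%.

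The separation of both kinds of block began at about 6 positions per window and widened from there. In the Tet1-null pool, members were lower than other blocks at 14 of 19 CpG numbers with an interval below 0, including every number from 6 upward. The interval included 0 at 4 numbers, and at 1 position per window members were higher (a difference of 0.611 points, 0.0647 to 1.25), a class of 1456 member windows. In the WT pool members were lower at 16 of 19 numbers, including every number from 5 upward, and the interval included 0 at the other 3. At 10 positions the difference of members from other blocks was -0.597 points in the Tet1-null pool and -0.536 in the WT pool, and at 19 positions it was -2.94 and -2.64 points.

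CpG content of the megabase was also set against the level in steps, with the blocks in 10 groups of about 239. Windows of 1 to 9 positions differed less along this scale than denser ones. They were at 3.81% in the Tet1-null pool and 3.48% in the WT pool in the group with the fewest CpGs. In CpG-rich blocks they were at 3.20% and 2.65%. Levels by group were not weighted by CpG number. Windows of 15 to 19 positions differed most. They were at 16.7% and 15.6% in the lowest group, 6.46% and 4.90% in the fifth, 4.05% and 3.001% in the ninth, and 3.645% and 2.72% in CpG-rich blocks, again in the Tet1-null and the WT pool. The ratio of the Tet1-null to the WT level in these windows was 1.07 in the lowest group, 1.32 in the fifth, 1.35 in the ninth and 1.34 in CpG-rich blocks.

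**Figure D2:**
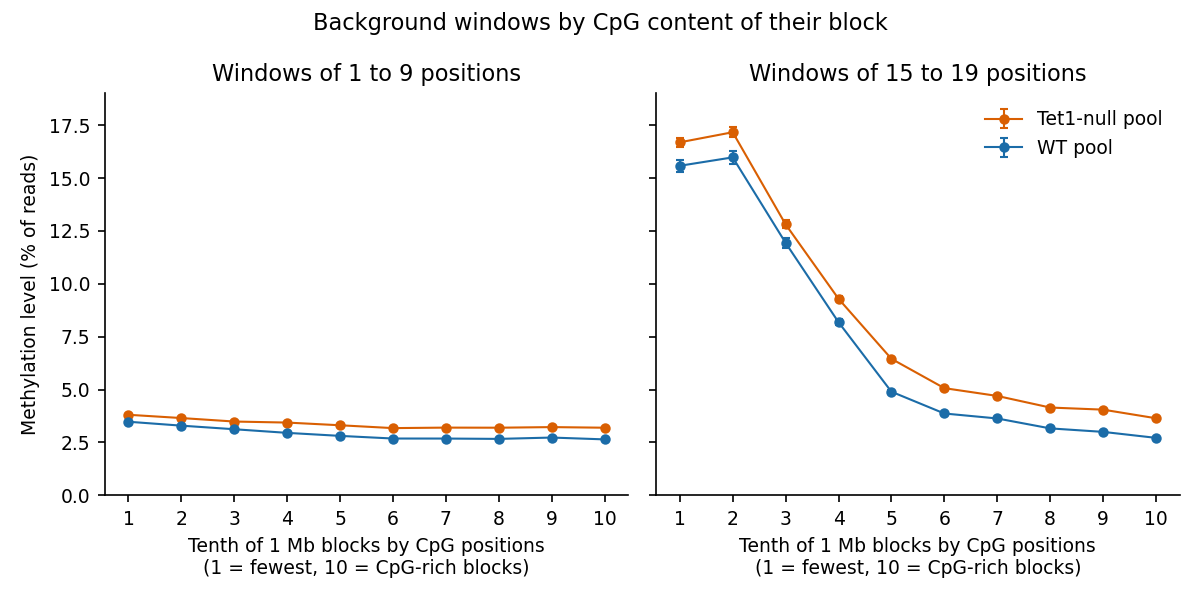
Methylation level (% of reads) of background windows against the rank group (1 to 10) of 1 Mb autosomal blocks by listed CpG positions, for windows of 1 to 9 positions (left) and 15 to 19 positions (right), in the Tet1-null pool (orange) and the WT pool (blue), with Wilson 95% intervals. Windows of 15 to 19 positions were at 16.7% and 15.6% in the group with the fewest CpGs and at 3.645% and 2.72% in CpG-rich blocks.

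Blocks on both sides of the cut had levels in overlapping ranges. The last 3 blocks inside it held 11279, 11263 and 11262 positions, with member levels of 3.56%, 3.29% and 2.76% in the Tet1-null pool, against 2.84%, 2.66% and 2.46% in the WT pool. The first 3 outside it held 11260, 11242 and 11240 positions, with levels of 3.44%, 3.33% and 3.87% in the Tet1-null pool, against 2.40%, 2.75% and 3.29% in the WT pool.

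The lower level of members held on each autosome by itself. At equal window CpG number, members were below the other blocks of their own chromosome on 19 of 19 autosomes in both pools, each with an interval below 0. Member levels per autosome ran from 3.07% on chromosome 6 to 3.66% on chromosomes 10 and 16 in the Tet1-null pool, and from 2.43% on chromosome 18 to 2.91% on chromosome 10 in the WT pool. The weighted levels of other blocks ran from 3.90% to 5.32% and from 3.14% to 4.42%, so the ranges of both kinds of block did not overlap within a pool. Chromosome 4 had the widest gap: its 28 CpG-rich blocks were at 3.33% and 2.57%, in the Tet1-null and the WT pool, and its other blocks at 5.32% and 4.42%.

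**Figure D3:**
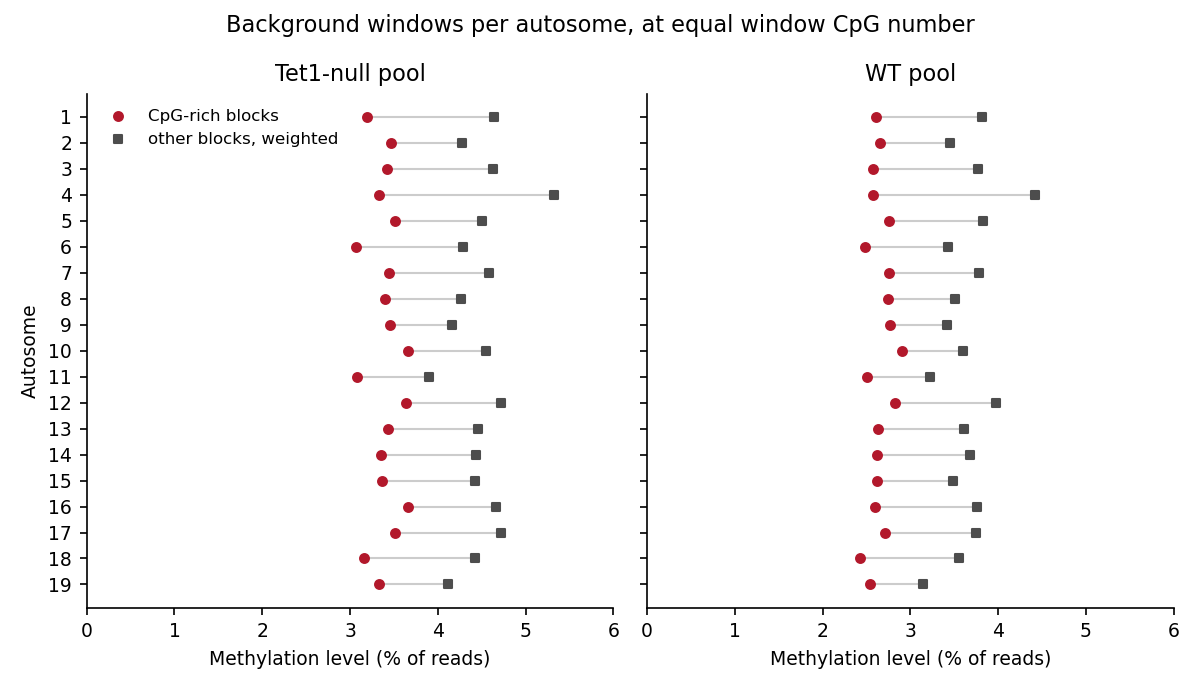
Methylation level (% of reads) of background windows of CpG-rich blocks (red circles) and of other blocks weighted to the same window CpG numbers (grey squares), for each autosome, in the Tet1-null pool (left) and the WT pool (right). Each red circle lies left of its grey square in both pools.

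Single blocks showed the same contrast in how the level depended on CpG number. Windows of 10 to 19 positions minus windows of 1 to 9 positions of the same block gave a median of 0.241 points in CpG-rich blocks and 1.43 points in other blocks in the Tet1-null pool. In the WT pool the medians were -0.0164 and 0.913 points. The value was above 0 in 71.1% of CpG-rich blocks and 93.3% of other blocks in the Tet1-null pool, and in 49.0% and 82.7% in the WT pool. In no CpG-rich block did it exceed 2.21 points in the Tet1-null pool or 2.85 in the WT pool, whereas the upper quartile of the other blocks was 4.47 and 3.66 points.

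**Figure D4:**
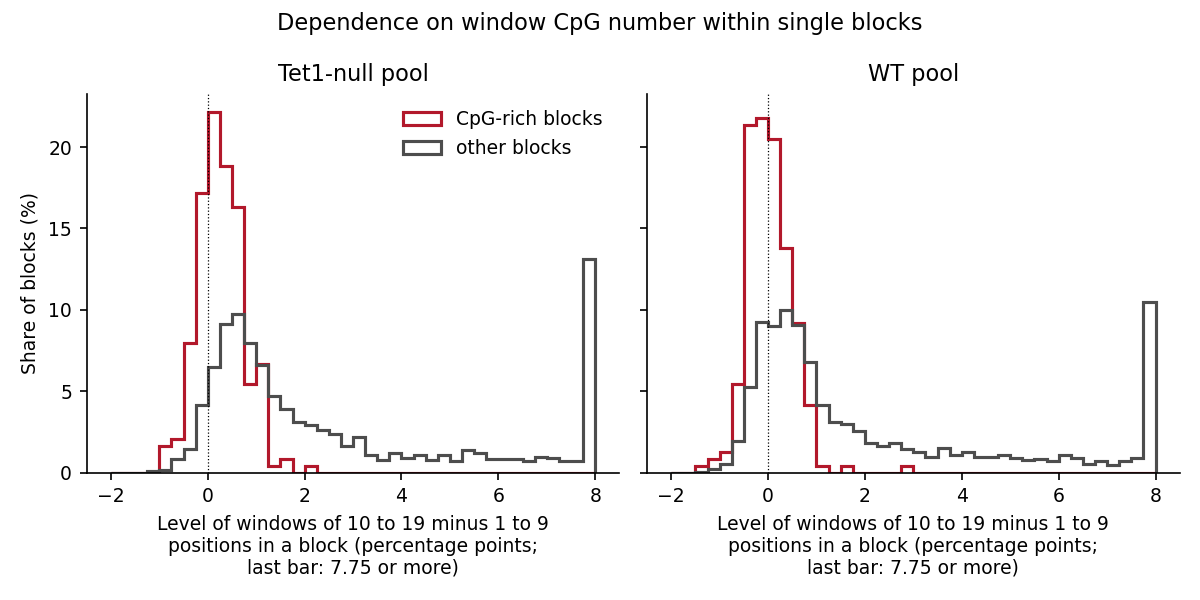
Share of 1 Mb blocks (%) by the level of windows of 10 to 19 positions minus that of windows of 1 to 9 positions in the same block (percentage points), for 239 CpG-rich blocks (red) and 2153 other blocks (grey), in the Tet1-null pool (left) and the WT pool (right); larger values are gathered in the last bar. CpG-rich blocks gather around medians of 0.241 and -0.0164 points, and other blocks spread to the right with medians of 1.43 and 0.913.

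Within classes of distance from dense windows, the contrast was also present in windows of 15 to 19 positions. Without weighting by CpG number, it was small in those of 1 to 9. Members lay closer to windows of 40 or more positions, at a median of 32 windows, against 171 for background windows of other blocks, and 35.6% of members against 76.3% elsewhere were more than 50 windows away. Levels of members increased with this distance. Members of 15 to 19 positions were at 3.28% in the Tet1-null pool and 2.57% in the WT pool when 3 to 5 windows away, and at 3.80% and 2.81% when more than 50 windows away. Windows of 15 to 19 positions in other blocks were at 4.14% and 3.23% at the near distance and at 6.65% and 5.44% at the far one. At the near distance members minus other blocks was thus -0.866 points (-1.004 to -0.727) in the Tet1-null pool and -0.665 points (-0.819 to -0.510) in the WT pool. In the 3 classes from 6 to 50 windows it lay between -0.824 and -0.727 points in the Tet1-null pool. The WT values there lay between -0.850 and -0.581 points. At the far distance it was -2.85 and -2.63 points, but that class has no upper limit, so distance is not matched within it. In windows of 1 to 9 positions members minus other blocks lay between -0.114 and -0.0503 points in the Tet1-null pool and between -0.240 and -0.0195 points in the WT pool over 5 classes of distance. Here the interval included 0 at 3 to 5 and at 21 to 50 windows in the Tet1-null pool. In the WT pool it included 0 at 3 to 5 and at 6 to 10 windows. It lay below 0 in the remaining classes. These differences by distance were not weighted by CpG number. At equal CpG number and over all distances, members minus other blocks was -0.0104 and -0.0517 points with 1 to 4 positions. With 5 to 9 positions it was -0.328 and -0.365 points, in the Tet1-null and the WT pool.

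Within member windows the level also varied with the spacing of CpGs, which the rule did not use. In member windows of 10 to 19 positions, sites with another listed position within 10 bases were at 4.52% in the Tet1-null pool (4.48 to 4.565%) and 3.21% in the WT pool (3.16 to 3.25%). Sites whose nearest listed position was 11 to 30 bases away were at 3.37% and 2.59%, those at 31 to 100 bases at 2.93% and 2.42%, and those further away at 2.92% and 2.45%. The difference of the pools was 1.32 points at the closest spacing (1.26 to 1.38) and 0.469 points at over 100 bases (0.370 to 0.566). The contrast with other blocks was widest at the closest spacing. In other blocks the same 4 classes had levels of 7.47%, 4.40%, 3.25% and 3.14% in the Tet1-null pool, against 5.70%, 3.59%, 2.78% and 2.80% in the WT pool. Close sites are often read by the same molecule, so their reads are not independent.

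Well methylated windows were scarcer among members than in other blocks. Windows with 5 or more positions listed in both pools and 20 or more reads in each numbered 60746 among members, with a median of 35 reads in the Tet1-null pool and 27 in the WT pool, and 218165 in other blocks, with medians of 32 and 26. A level of 20% or more was reached by 1.79% of these members (1.69 to 1.90%) and 3.61% of other windows (3.53 to 3.69%) in the Tet1-null pool. In the WT pool the shares were 1.198% (1.11 to 1.29%) and 2.95% (2.88 to 3.02%). Among windows of 15 to 19 positions the gap was wider, at 1.97% of members and 5.59% of other windows in the Tet1-null pool, and 1.19% and 4.72% in the WT pool. In those windows, the ones at 20% or more held 15.03% of the methylated reads of members and 35.5% of those of other blocks in the Tet1-null pool, and 13.5% and 38.9% in the WT pool. At 50% or more stood 50 member windows in the Tet1-null pool (0.0823%) and 43 in the WT pool (0.0708%). In other blocks there were 735 (0.337%) and 754 (0.346%). Both lists shared 13 member windows, 26% of the Tet1-null list and 30.2% of the WT list. In other blocks they shared 236, 32.1% and 31.3%.

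To keep choice and measure apart, windows were chosen by their level in one pool and measured in the other. Among windows of 15 to 19 positions whose WT level was under 10%, the Tet1-null level was 3.33% in members (3.29 to 3.36%) and 3.63% in other blocks (3.61 to 3.66%). In those whose Tet1-null level was under 10%, the WT level was 2.38% in members (2.34 to 2.41%) and 2.71% in other blocks (2.68 to 2.73%). Members minus other blocks was thus -0.306 points in the Tet1-null pool and -0.332 in the WT pool, against -1.51 and -1.54 points over all windows of 15 to 19 positions with that depth. Windows of 5 to 19 positions at 20 to under 50% in the WT pool, 685 members and 5683 others, were at 15.4% in members (14.9 to 15.8%) and 21.6% in other blocks (21.4 to 21.8%) in the Tet1-null pool. Those at 50% or more in the WT pool were at 39.8% (37.5 to 42.1%, 43 windows) and 41.0% (40.4 to 41.5%, 754 windows). The windows at 20% or more overlapped between the pools: 242 members were in both lists, 22.2% of the Tet1-null list and 33.2% of the WT list, against 42.0% and 51.4% in other blocks.

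The same held for single sites. Member sites whose WT reads included a methylated one were at 6.83% in the Tet1-null pool (6.72 to 6.945%), against 3.19% at sites with no methylated WT read. In other blocks the values were 9.74% and 3.36%. Of 24235 member sites that each pool covered with 5 or more reads, 85.5% had no methylated read in the Tet1-null pool (85.1 to 85.95%) and 89.1% in the WT pool (88.7 to 89.5%), at a greater overall depth in the Tet1-null pool, whose part in these shares was not tested. Sites above 80% numbered 9 in the Tet1-null pool and 9 in the WT pool, 0.0371% of the total, against 0.0983% and 0.107% of sites in other blocks.

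The Tet1-null level was the higher one across the CpG-rich blocks. Member levels per block had a median of 3.34% in the Tet1-null pool, with quartiles of 3.13 and 3.65%, and of 2.61% in the WT pool, with quartiles of 2.43 and 2.85%. The spread between blocks was an SD of 0.416 points in the Tet1-null pool and 0.407 in the WT pool. With all counts independent, counting error alone would give 0.122 and 0.135 points. Neighbouring CpGs are often read by the same molecule, so counting error may be understated, and the intervals of single blocks too narrow. In 236 of 239 CpG-rich blocks, 98.7%, and in 91.9% of other blocks the Tet1-null level exceeded the WT level. The interval of the difference lay above 0 in 215 CpG-rich blocks, 90.0% against 64.9% of other blocks, and below 0 in 1, 0.418% against 1.21%. Counting error per block was smaller in CpG-rich blocks (0.122 and 0.135 points, against 0.173 and 0.1996 points in other blocks, in the Tet1-null and the WT pool), and its part in these shares was not tested. Each of the 19 autosomes had a higher member level in the Tet1-null pool, from 0.577 points on chromosome 11 to 1.07 points on chromosome 16.

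This difference grew with the number of CpGs in a member window. It was 0.374 points (0.237 to 0.510) with 1 to 4 positions, 0.572 points with 5 to 9, 0.720 points with 10 to 14 and 0.927 points (0.885 to 0.970) with 15 to 19. As a ratio of the Tet1-null to the WT level it was 1.14 (1.08 to 1.19), 1.22, 1.27 and 1.34 (1.32 to 1.36). In other blocks weighted to the same CpG numbers the differences were 0.333, 0.535, 0.802 and 1.15 points, and the ratios 1.12, 1.18, 1.23 and 1.25.

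Whether the pools differed more in CpG-rich blocks or elsewhere depended on the scale. In points, and at equal CpG number, the difference in members minus that in other blocks was -0.0991 points (-0.126 to -0.0721). As a log2 ratio the sign was the opposite, 0.0560 (0.0436 to 0.0684). Without weighting by CpG number it was 0.0973 points, with 0.738 points in members and 0.640 in other blocks. On single autosomes the interval of the weighted difference lay below 0 on 9, above 0 on 0 and included 0 on 10. At sites listed in both pools it was -0.0260 points, with an interval that included 0.

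The difference between the pools was present at each depth that held many sites. Member sites whose shallower pool had 1 read differed by 0.684 points (0.641 to 0.727), those with 2 reads by 0.724, those with 3 to 4 by 0.758 and those with 5 to 9 by 0.644 points (0.521 to 0.767). At the 413 member sites that each pool covered with 10 or more reads, the levels were 3.55% and 3.32%, in the Tet1-null and the WT pool, a difference of 0.231 points (-0.322 to 0.772) whose interval included 0. Deep windows were rare: 1 of 196511 member windows exceeded 20 times the median of reads per position, against 86 of 1987145 background windows in other blocks. It belonged to a run on chromosome 17 from 35635001 to 35651000 (build mm9, as are all coordinates here), whose 13 member windows held 4.17 to 15.9 times the median depth in the Tet1-null pool and 6.32 to 21.3 times in the WT pool. Of 21 members over 10 times the median, 12 lay in that run. The level of the run was 3.94% (3.397 to 4.57%) in the Tet1-null pool and 2.91% (2.41 to 3.50%) in the WT pool.

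One block stood apart from the others. The block on chromosome 10 from 82000001 to 83000000 had the highest member level of the CpG-rich blocks in each pool, 5.84% in the Tet1-null pool and 6.56% in the WT pool, and also the lowest difference between the pools, -0.721 points (-1.23 to -0.217). The level was highest in its last 200 kb, a division chosen after the values were seen. The 164 member windows from 82800001 to 83000000 were at 15.9% in the Tet1-null pool (14.8 to 16.98%) and 20.8% in the WT pool (19.3 to 22.3%). The 701 members in the rest of the block were at 3.42% and 2.92%, and among those the first 100 kb had the highest level, 7.40% (5.91 to 9.24%) in the Tet1-null pool and 5.79% (4.23 to 7.88%) in the WT pool. Depth in the methylated stretch, 2.91 and 2.30 reads per listed site, was close to that of members as a whole. Without this block, the members of the other 238 were at 3.398% in the Tet1-null pool and 2.65% in the WT pool, a difference of 0.744 points (0.721 to 0.767).

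**Figure D5:**
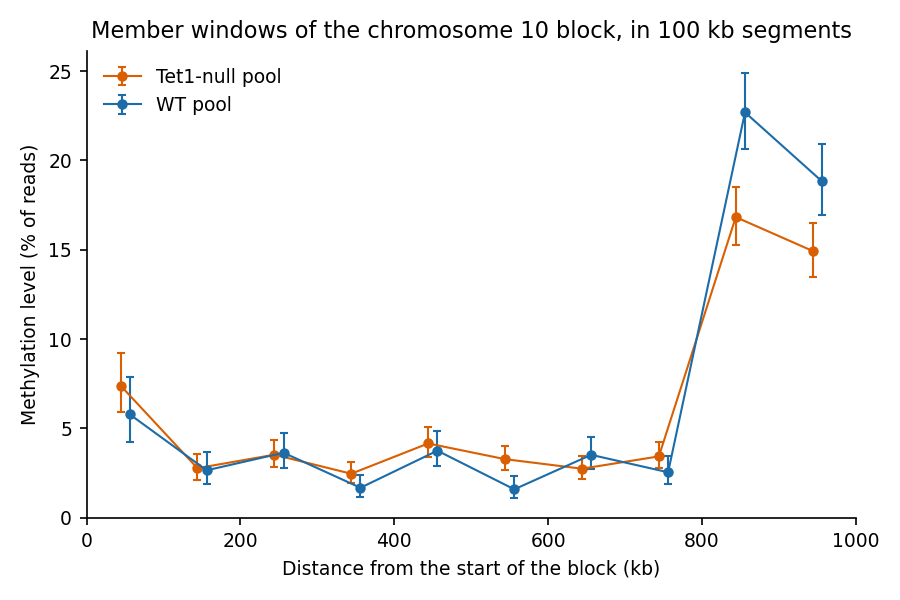
Methylation level (% of reads) of member windows in 100 kb segments along the 1 Mb block of chromosome 10 with the highest member level, in the Tet1-null pool (orange) and the WT pool (blue), with Wilson 95% intervals. The last 2 segments are at 16.8% and 14.9% in the Tet1-null pool, against 22.7% and 18.8% in the WT pool.

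Among the remaining CpG-rich blocks the levels varied less. Blocks were ranked by the mean of their levels in both pools. Next in that order were the block of chromosome 7 from 30000001, at 4.20% in the Tet1-null pool and 4.09% in the WT pool, and that of chromosome 17 from 34000001, at 4.38% and 3.88%. The lowest means were on chromosome 11, in the blocks from 94000001 (2.26% and 2.15%) and from 96000001 (2.73% and 2.05%), and on chromosome 9, in the block from 108000001 (2.69% and 2.09%). The largest difference between the pools was in the block of chromosome 8 from 87000001, at 4.29% and 2.58%, a difference of 1.71 points (1.26 to 2.15). It was followed by chromosome 2 from 170000001, at 4.01% and 2.54%, and chromosome 16 from 91000001, at 3.44% and 1.97%. After the chromosome 10 block, the smallest differences were -0.0497 points on chromosome 8 from 108000001 and -0.0102 points on chromosome 14 from 55000001, and both intervals included 0. Genes of these blocks are not named, because no annotation of the build was used.

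Other windows of the same blocks differed from other blocks in the same direction. Windows of 20 to 39 positions in CpG-rich blocks were at 3.93% in the Tet1-null pool and 3.09% in the WT pool, against 8.35% and 7.004% in other blocks. Dense windows of 40 or more positions, which include CpG islands, were at 2.27% and 2.57%, against 3.24% and 4.04% in other blocks. In these dense windows of CpG-rich blocks the Tet1-null level was the lower one, with a difference of -0.297 points (-0.374 to -0.220). There the Tet1-null pool listed 82.3% of the positions and the WT pool 56.9%, against 88.3% and 74.7% in members. The part of this unequal coverage was not tested. On the mitochondrial chromosome the difference between the pools was -0.371 points (-0.537 to -0.211). Sparse windows within 2 windows of a dense one, left out of the members, were at 2.70% and 2.28% in CpG-rich blocks.

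Few single member windows were called as different between the pools. Each window was put through a two-sided Fisher's exact test of its reads, which compares 2 pools and not the genotypes. P-values were adjusted by Benjamini and Hochberg's method over all 363952 autosomal windows tested, and a call needed an adjusted p below 0.05 together with at least 20 points of difference. Of 60746 members tested, 14 were called higher in the Tet1-null pool, 0.023%, against 0.0975% of all autosomal windows tested. Another 14 were called lower, also 0.023%, against 0.0604% of all. At an unadjusted p below 0.05 stood 1235 members that were higher, 2.03% against 2.55% of all windows tested, and 806 that were lower, 1.33% against 1.86%. A difference of 20 points, whatever its p, was reached upward by 603 members, 0.993% against 1.42% of all windows tested, and downward by 299, 0.492% against 0.867%. All windows tested include those of 20 or more positions. Among background windows of other blocks, 0.0596% were called higher and 0.038% lower. Their shares at an unadjusted p below 0.05 in Fisher's exact test were 2.19% and 1.57%, and those at 20 points 1.40% and 0.886%.

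The calls were few under other settings of the same test. With at least 30 reads in each pool, 15 members were called higher (0.0875%, against 0.269% of all windows tested) and 6 lower (0.035% against 0.137%). With at least 10 reads, 8 were called higher (0.00636% against 0.0314%) and 16 lower (0.0127% against 0.027%). With the reads of each site thinned to equal depth, 1 was called higher (0.00372% against 0.0446%) and 2 lower (0.00744% against 0.0188%). No minimum difference left the members' counts at 14 and 14, against 0.101% and 0.0673% of all windows. On sites at least 100 bases apart, which are less often read by one molecule, windows with 3 or more such sites and 10 or more reads in each pool were tested. Fisher's exact test then called 0 of 43846 members in either direction, and 0 of 301520 autosomal windows. Spacing the sites also leaves fewer reads per window and so less power. Loss of power and loss of shared molecules cannot be told apart here. At an unadjusted p below 0.05, 63 of these members were higher (0.144%, against 0.176% of all) and 93 lower (0.212% against 0.247%).

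Median levels of the called members were 44.8% in the Tet1-null pool and 0% in the WT pool for the 14 that were higher, and 0% and 42.7% for the 14 that were lower. Since a read counts at each CpG it covers, 1 molecule can appear several times in the counts below. Fisher's exact test takes them as independent. On sites at least 100 bases apart none of the windows named below was tested, so that setting cannot decide whether their calls rest on shared molecules. On chromosome 17 from 27478001 to 27479000, 0 of 77 reads were methylated in the Tet1-null pool and 17 of 28 in the WT pool (Fisher's exact test, adjusted p = 3.41e-08). The 10 windows around it were at 0.730% in the Tet1-null pool and 1.49% in the WT pool. Also on chromosome 17, the window from 46038001 to 46039000 had 0 of 47 and 15 of 30 methylated reads, with its surrounding windows at 3.03% and 4.90%. The largest fall in points was on chromosome 2 from 167234001 to 167235000, with 10 of 37 methylated reads in the Tet1-null pool and 20 of 22 in the WT pool, where the surroundings were also methylated, at 27.8% and 23.8%. Among the windows that were higher, chromosome 15 from 79682001 to 79683000 had 14 of 26 methylated reads in the Tet1-null pool and 0 of 20 in the WT pool. Chromosome 4 had 15 of 28 and 0 of 26 from 152976001 to 152977000, and 12 of 21 and 1 of 26 from 129781001 to 129782000. Surroundings of these 3 windows lay between 2.48% and 5.05% in the Tet1-null pool and between 0.524% and 4.57% in the WT pool.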

How the data were processed

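DNA was tagged by Tn5 transposase, bisulfite-converted with a Sigma or a Zymo kit and sequenced, per the labels' protocols. The authors deposited 1 pooled table per genotype with, per CpG, the methylation level as a fraction and the count of reads. Their product was whole at 100% of sites, within 0.0005 per read. Build mm9 and bedtools are named in the submitters' processing notes; the sources used here do not give the aligner or how duplicates were handled. A deposited filter drops reads with over 1.2% of bases a C not followed by G, which can lower levels.

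Methylated and total reads were summed with Python 3.11.15, numpy 2.4.6, pandas 2.3.3, scipy 1.17.1 and matplotlib 3.10.9. A block was full if it ended before the last listed position of its chromosome. Positions with no read in either pool are uncounted. Windows tested held 5 or more positions listed in both pools and 20 or more reads in each; the median member had 25 reads in the Tet1-null pool and 16 in the WT pool. Other blocks were weighted to the members' share of reads in each CpG number. Named windows were the called members at each end of the difference, 3 apiece. Named blocks were the 3 at each end of level and of difference, and at the cut. Members and comparisons were chosen with earlier results of these data known. The labels do not say whether libraries came from separate embryos. No sequence or gene is named, since no genome of the build was used. Alternatives changed the sites, depth, blocks, distance rule, weighting and scale.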

Additional observations from a re-analysis of the deposited data

Results flagged for a closer look

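Signal appeared in data outside the main measurement. On the mitochondrial chromosome, 1.29% of reads at CpG sites were methylated in the Tet1-null pool and 1.66% in the WT pool, where methylation at this level is taken as unconverted cytosine. Background windows of the X chromosome, chosen by the same rule on CpG number and distance but from blocks of any CpG content, were at 5.15% in the Tet1-null pool and 4.92% in the WT pool. X windows of 15 to 19 positions were at 13.4% and 12.5%, above the 3.645% and 2.72% of CpG-rich autosomal blocks. They lay within the range of autosomal blocks outside the cut. There, such windows ran from 17.2% and 16.0% in group 2 by CpG content to 4.05% and 3.00% in group 9. The fullest X block held 10484 positions.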

How the results depend on the processing

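No paired analysis was possible because the deposited tables pool the libraries of each genotype, and for the same reason no library could be left out. Members were below other blocks in both pools, the Tet1-null level was above the WT level in both kinds of block, and the increase with CpG number was larger in other blocks, under every alternative run for these. The values follow, in points, with the Tet1-null value before the WT value in each pair. At sites listed in both pools, member levels were 3.37% and 2.65%, members minus other blocks -0.946 and -0.920, the pool difference in other blocks 0.583, the difference of differences -0.0260, and the gradient (15 to 19 minus 1 to 4 positions) in other blocks 2.36 and 1.65. At sites that each pool covered with 3 or more reads, they were 3.31% and 2.575%, -0.925 and -0.868, 0.622, -0.0573, and 2.53 and 1.72, and the WT gradient of members was -0.174 (-0.368 to 0.00913). With the mean of site levels they were 3.46% and 2.73%, -0.987 and -0.965, 0.580, -0.0223, and 2.38 and 1.64. The difference of differences had an interval that included 0 at sites listed in both pools and for the mean of site levels. The latter interval counts each site as 1 read, so it is not an interval for the counting error of the reads.

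With the highest 5% of blocks, member levels were 3.39% and 2.65%, members minus other blocks -1.06 and -0.948, the Tet1-null gradient of members 0.233, and the gradients of other blocks 2.29 and 1.495. With the highest 20%, levels were 3.46% and 2.73%, members minus other blocks -1.22 and -1.13, the pool difference in other blocks 0.626, the gradients of members 0.704 and 0.107, and those of other blocks 3.23 and 2.38. More than 5 windows from dense windows, the Tet1-null member level was 3.44% and the gradients of other blocks 2.64 and 1.815. Without a distance rule, levels were 3.37% and 2.65% and those gradients 2.49 and 1.69. With dense windows set at 30 or more positions, members minus other blocks was -1.075 and -0.980. Without deep windows, the WT value was -0.983 and the gradients of other blocks 2.55 and 1.71. With the mitochondrial level subtracted, member levels were 2.12% and 1.01%, and the pool differences 1.11 in members and 1.01 in other blocks. Without weighting by CpG number, members minus other blocks was -0.494 and -0.591, and the difference of differences turned to 0.0973; on the log2 ratio scale it was 0.0560. The cause of these changes was not tested.

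Member windows called higher numbered 8 with at least 10 reads, 1 with thinned reads and 0 on spaced sites. Those called lower numbered 6 with at least 30 reads, 2 with thinned reads and 0 on spaced sites. With at least 10 reads, 2 named windows, on chromosome 15 and on chromosome 4 from 129781001, lost the call (adjusted p = 0.0660 and 0.0706, Fisher's exact test). With at least 30 reads, only the named window on chromosome 17 from 46038001 met the minimum, and it kept its call. With thinned reads, only the 2 named windows on chromosome 17 met it, and both kept theirs. On spaced sites none of the named windows was tested. Leaving out the chromosome 10 block, and weighting by autosome as well as CpG number, were chosen after seeing the data. Depth per site, 2 to 3 reads, limits single sites and windows most.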
